A study of Mus musculus with 4 samples.

Results

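The genes examined here encode the working parts of cilia, from the dynein arms, radial spokes and tektins of the motile axoneme to the transport and sorting complexes that most cilia share. They were chosen by symbol alone, as every probe whose annotated gene symbol began with Dnah, Dnai, Dnal, Ift, Rsph, Tekt, Bbs, Cfap or Spag in the numbered forms of these names, together with Foxj1 and Dynlrb2. The rule found 165 probes of 84 genes among the 19057 genes that probes of the array named singly. Of these, 52 were grouped as motile or axonemal, 26 as general ciliary genes, and 6 were Spag genes not placed in the axoneme. The samples were brain total RNA of mice of a mixed 129J x C57BL/6 background, 2 of genotype Atm+/+ and 2 of genotype Atm-/-, each read on 1 Illumina bead array. No treatment is named. The Atm allele, age, sex, part of brain and number of animals are not stated in the labels, so p-values reflect sample-to-sample spread alone, which could be technical. The series title places the arrays in work on histone H3 methylation by EZH2 in ataxia-telangiectasia, the disease caused in humans by loss of the ATM kinase. The question taken up is whether genes of cilia differed between the genotypes, and whether the motile set and the general set did so alike.

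A cilium is built on doublet microtubules, and cargo is carried along them by intraflagellar transport, with the IFT-B complex serving chiefly outward and the IFT-A complex inward movement. The BBSome is a coat-like complex that moves membrane proteins in and out. Motile cilia add rows of dynein arms, radial spokes and a central apparatus, and in brain they are carried in tufts by ependymal cells lining the ventricles. Choroid plexus epithelium also bears cilia. Neurons and astrocytes bear a single primary cilium that has the transport machinery and lacks the motile parts.

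The values were log2 signals, and a probe was tested where it lay above a background level of 5.64 on at least 2 of the 4 arrays. Differences are Atm-/- minus Atm+/+ on the log2 scale with the moderated standard error (SE) of limma, from 2 arrays per genotype, and "rose" and "fell" are used of genes with an adjusted p under 0.05 over all 22383 tested probes. The Atm probe ILMN_1258206 read 7.75 and 7.84 in Atm+/+ and 5.59 and 5.27, at background, in Atm-/-. ILMN_2783896 read 6.25 and 6.67 against 5.09 and 5.14, also at background. Both fell (limma adjusted p of 0.00224 and 0.0205), but passed the filter through Atm+/+ alone and could only read lower. The brightest tested Atm probe, ILMN_2492491, read 9.72 and 9.32 against 9.66 and 10.61 and did not pass (adjusted p = 0.308). Without the allele, it cannot be said where these probes lie relative to the altered part of the gene. The samples also differed in markers of brain regions. Of 12 tested forebrain markers, 11 rose, against 7.50% of all tested genes, each at its brightest tested probe. The summed signal of the 12 was 4233 to 6369 in Atm+/+ and 61303 to 68402 in Atm-/-. Of the 12, 5 were at background on both Atm+/+ arrays. Of 11 tested cerebellum markers, 9 fell, against 6.89% of all tested genes, with summed signals of 90461 to 98654 and 7176 to 7615. Of the 11, 5 were at background on both Atm-/- arrays. Of 9 tested brainstem and spinal cord markers, 8 fell, against the same 6.89%, with summed signals of 5480 to 7828 and 498 to 517. Of the 9, 6 read at background throughout the Atm-/- group. Region markers at background in a whole genotype passed the filter through the other genotype alone, so their direction was fixed by it. The part of these region differences in the results below was not tested. In whole-tissue RNA, fewer cells of a type and less RNA per cell cannot be told apart.

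Genes of the motile axoneme were lower in Atm-/- brain in part, and general ciliary genes, with 1 exception, Dynlrb2, did not pass the test. Dynlrb2 was grouped as general, though it is known for high expression in tissues with motile cilia. Of 52 motile genes, 33 were tested, and 8 of these fell while 0 rose with limma. Of the 8, Cfap126 and Cfap70 passed the filter on dim probes through the Atm+/+ arrays alone, so their direction was fixed by it, and 6 fell when all 4 arrays had to be above background. Across all 12229 tested genes, each represented by its brightest tested probe, 6.89% fell and 7.50% rose; by probe, the shares were 6.06% and 6.98%. At an unadjusted p under 0.05, 11 motile genes were lower and 3 higher, against 15.9% and 15.7% of all tested genes at that threshold. Of 26 general genes, 24 were tested, 1 fell and 0 rose, with 2 lower and 3 higher at an unadjusted p under 0.05. Of the 6 remaining Spag genes, 5 were tested and 1 fell. The median change was -0.43 over the 33 tested motile genes, 0.02 over the 24 general genes and -0.01 over all tested genes. The filter touches the motile figures: 4 of the 33 passed it through the Atm+/+ arrays alone and had to read lower, and 2 through the Atm-/- arrays alone. Over all 52 motile genes, dim ones included, the median difference was -0.25.

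The arrays of the genotypes did not overlap, with Atm-/- lower, at 19 of the 33 motile genes and 8 of the 24 general genes, against 32.2% of all tested genes. They did not overlap in the other direction at 7 motile and 5 general genes, against 29.5%. Over all tested probes, these shares were 30.3% and 29.4%. At 4 of the 19 motile genes and 2 of the 7, the lack of overlap was fixed by the filter. These genes had passed it through Atm+/+ alone and through Atm-/- alone. Of all 12229 tested genes, 372 and 322 passed in these ways. The motile calls rested on both Atm-/- arrays, and calls over all tested probes were also fewest without either of these. The spread was then taken from the Atm+/+ pair, over 2-fold apart at 11.3% of tested probes, against 0.74% for the Atm-/- pair. Over the fits that left out an array, the change ran from -1.51 to -1.42 at Spag1 (ILMN_2666380) and from -1.65 to -1.05 at Dnali1. Without Atm-/- replicate 1 the number of motile genes that fell was 0, and without Atm-/- replicate 2 it was 1, Cfap126. Without an Atm+/+ array it was 10 or 11.

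Cfap126, also called flattop, a protein inside the doublet microtubules that also serves basal body docking, could be measured in Atm+/+ brain only. It read 7.39 and 7.38 in Atm+/+ and 5.40 and 5.60 in Atm-/-, where both arrays were at background. Its level was at least 3.35-fold lower in Atm-/- (fitted change -1.89 ± 0.25, limma adjusted p = 0.00487), but having passed the filter through Atm+/+ alone it could only read lower. The bound takes the mean of the Atm+/+ arrays against the lowest signals above background on the Atm-/- arrays. With Atm-/- replicate 1 left out it no longer passed (adjusted p = 0.0737, within 4.03e-05 to 0.0737 over its alternatives).

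Spag1, a chaperone partner that assembles dynein arms in the cytoplasm before they enter the cilium, was measured by a pair of probes. ILMN_2666380 read 8.67 and 8.71 in Atm+/+ and 7.27 and 7.18 in Atm-/-. ILMN_2955694 read 8.27 and 8.31 against 6.87 and 6.95. Both probes parted the genotypes by far more than the gap between arrays of a genotype. The changes were -1.47 ± 0.25 and -1.39 ± 0.25, with limma adjusted p of 0.0112 and 0.0135.

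Tekt1, a tektin, one of the filament proteins that run along the inner wall of the doublets, read 9.12 and 8.97 in Atm+/+ and 7.76 and 7.26 in Atm-/- at ILMN_1239718. It fell by 1.53 ± 0.28 (limma adjusted p = 0.0151). Its other probe, ILMN_2700097, read 7.87 and 7.58 against 6.93 and 6.80, a change of -0.86 ± 0.26 that missed the threshold (adjusted p = 0.0719). The Atm-/- arrays were the lower ones at both probes. Tekt5, a tektin known from sperm, read 7.41 and 7.10 in Atm+/+ and 5.80 and 6.13 in Atm-/-, and fell by 1.29 ± 0.27 (limma adjusted p = 0.0248).

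Cfap161, a protein of the doublet interior, read 7.43 and 7.06 in Atm+/+ and 5.97 and 5.77 in Atm-/-, and fell by 1.38 ± 0.27 (limma adjusted p = 0.0188). Cfap157, which in mouse is associated with basal bodies, read 7.38 and 7.12 against 5.93 and 6.01, and fell by 1.28 ± 0.26 (limma adjusted p = 0.0205). In both genes the Atm-/- values lay a little above background. Dnali1, a light intermediate chain of inner dynein arms, read 7.99 and 7.40 in Atm+/+ and 6.44 and 6.25 in Atm-/-, and fell by 1.35 ± 0.30 (limma adjusted p = 0.0276). Cfap70 read 6.12 and 6.42 against 5.18 and 5.32, the last values being at background, so its level was at least 1.55-fold lower (fitted change -1.01 ± 0.26, limma adjusted p = 0.0461). Like Cfap126 it could only read lower, having passed the filter through Atm+/+ alone. For the 7 motile genes other than Cfap126, each call was lost without either Atm-/- array, at adjusted p of up to 0.170 for Spag1 and 0.424 for Cfap70. Only Dnali1 among the 8 also lost its call when dim probes were not filtered out.

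**Figure D1:**
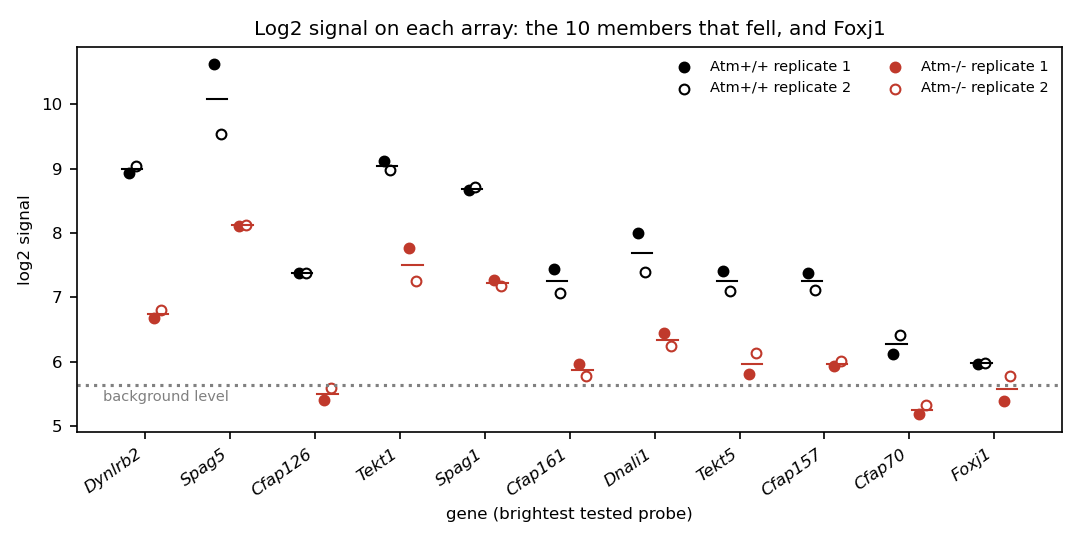
Log2 signal on each of the 4 arrays (points, 2 per genotype) with the genotype mean (bar) for the 10 genes that fell, in order of change, and for Foxj1; the dotted line is the background level of 5.64. In each of the 10 the Atm-/- points lie below both Atm+/+ points, and at Cfap126 and Cfap70 they lie at background.

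Foxj1, the transcription factor that switches on the genes of motile cilia, was read near background on all arrays. Its single probe, ILMN_2754453, gave 5.97 and 5.99 in Atm+/+ and 5.38 and 5.78 in Atm-/-. The Atm-/- values were lower, but the change of -0.40 ± 0.27 did not pass (limma adjusted p = 0.366).

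The parts of the axoneme held few tested genes each, and differences between them were not tested. Of 8 tested tektins and microtubule inner proteins, 4 fell, Cfap126 among them, and 0 rose, against 6.89% and 7.50% of all tested genes. The median change of the 8 was -1.08 (-0.72 over all 10, dim genes included). Cfap126 and Spag8 had passed the filter through Atm+/+ alone. In this group Cfap52 stood at -0.88 ± 0.29 (adjusted p = 0.0901), while Cfap45 at 0.46 ± 0.43 and Cfap20 at 0.35 ± 0.55 had positive estimates with wide errors. Of 6 tested radial spoke genes, 0 fell and 0 rose with limma. At an unadjusted p under 0.05, 1 was lower and 1 higher, against 15.9% and 15.7% of all tested genes. Rsph4a, a protein of the spoke head, read 7.63 and 8.53 in Atm+/+ and 6.53 and 7.18 in Atm-/-, a change of -1.22 ± 0.38 (adjusted p = 0.0782). Rsph1, another spoke head protein, read 10.13 and 9.57 against 9.50 and 9.23 (-0.48 ± 0.29). Rsph3a ran the other way, at 7.26 and 7.32 against 8.08 and 8.29, a change of 0.90 ± 0.25 (adjusted p = 0.0603). Rsph9 differed between its probes, at 0.08 ± 0.25 and -0.35 ± 0.25. Of 5 tested Cfap genes outside the named parts, 4 stood below 0 and 1, Cfap20dc, above. Cfap20dc, named after its values were seen, had the largest positive change of the 62 tested genes, 1.36 ± 0.53 (limma adjusted p = 0.135). It read 7.52 and 5.77 in Atm+/+ and 7.85 and 8.18 in Atm-/-. Its other tested probe stood at 0.43 ± 0.26.

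Among the genes of the central apparatus, the pair of microtubules at the core of the axoneme with its projections, 4 were tested. Cfap70, with its direction fixed by the filter, was the 1 that fell, against 6.89% of all tested genes. Cfap65 stood at -0.96 ± 0.30 (adjusted p = 0.0807), and Spag6l, which encodes a central apparatus protein, at 0.39 ± 0.28, with 8.74 and 8.42 in Atm+/+ and 8.79 and 9.14 in Atm-/-. Of 10 axonemal dynein heavy chain genes, the motors themselves, 4 were tested. Dnah2, an inner arm chain, read 7.07 and 7.04 against 6.68 and 6.22 (-0.61 ± 0.27). Dnah11, an outer arm chain, read 5.43 and 5.23, at background, against 6.02 and 5.87 (adjusted p = 0.159), and Dnah8 read 5.43 and 5.51, also at background, against 6.30 and 5.74 (adjusted p = 0.247). Dnah7a stood at 0.02 ± 0.28. The remaining 6 heavy chains, Dnah1, Dnah5, Dnah6, Dnah9, Dnah10 and Dnah17, were too dim to be tested. So were 13 further motile genes, among them Spag16, Spag17, Cfap43, Cfap53 and Tekt3.

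**Figure D2:**
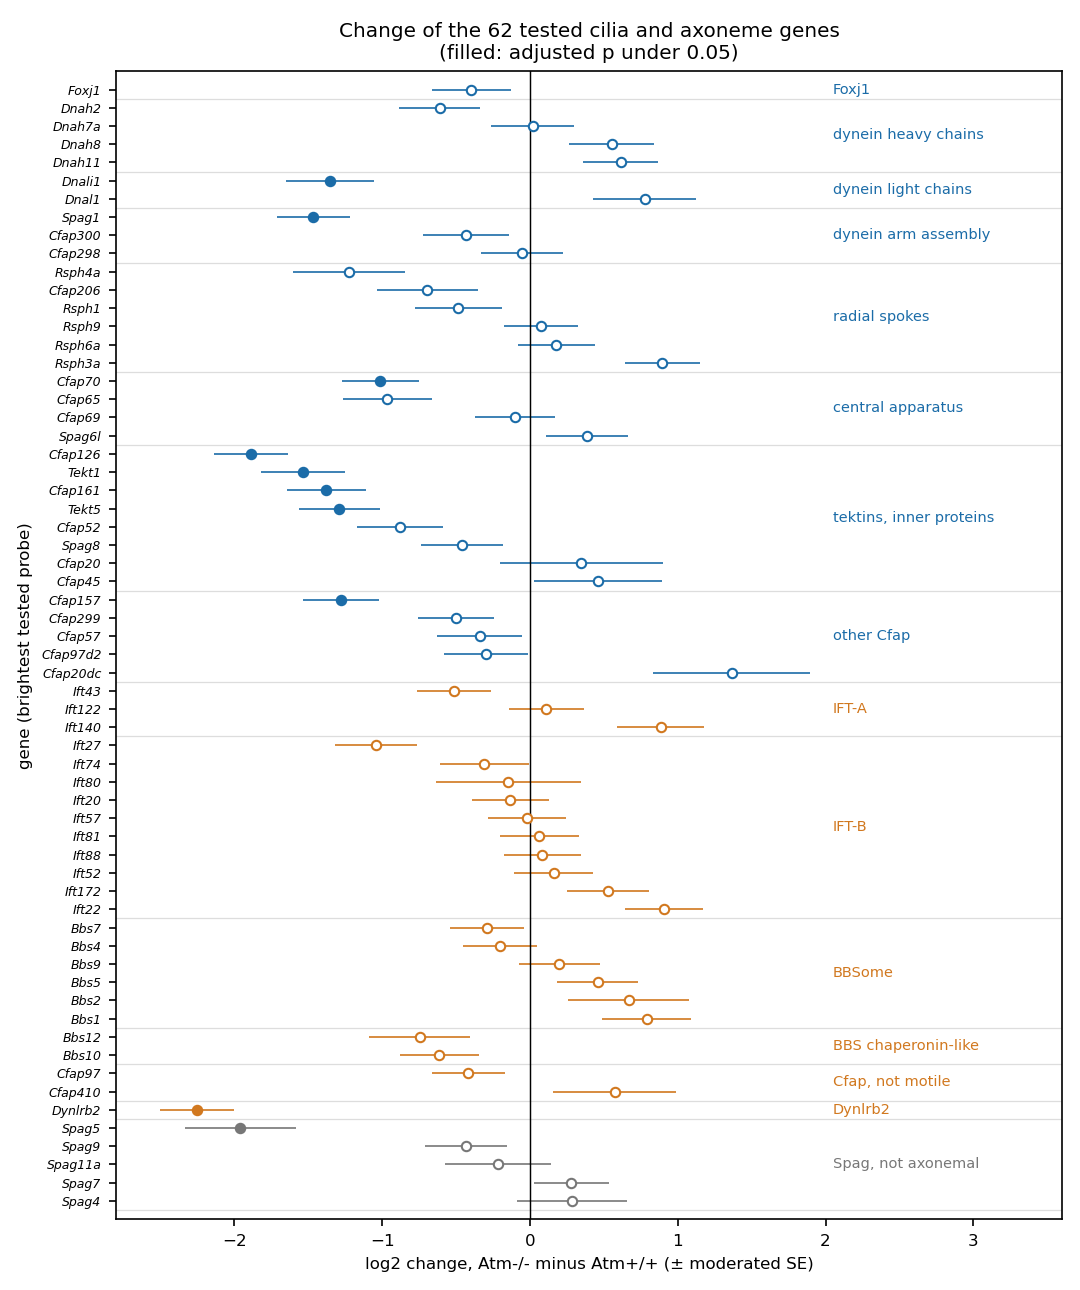
Log2 change, Atm-/- minus Atm+/+, with its moderated SE (bars) for the 62 tested genes by part of the cilium, motile genes in blue, general genes in orange and other Spag genes in grey; filled points had an adjusted p under 0.05. The 10 filled points all lie left of 0, and the transport and BBSome genes spread to both sides of 0.

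General ciliary genes spread to both sides of 0, with 12 of 24 below and 12 above. Of 10 tested IFT-B genes, 0 passed with limma. At an unadjusted p under 0.05, 1 was lower and 1 higher, against 15.9% and 15.7% of all tested genes. Ift20, an IFT-B subunit that also sits at the Golgi, read 12.44 and 12.31 in Atm+/+ and 12.38 and 12.10 in Atm-/-. Its change of -0.13 ± 0.26 (adjusted p = 0.778) was within the spread of the arrays. Ift172, the largest IFT-B subunit, read 11.38 and 10.92 against 11.77 and 11.58 (0.53 ± 0.28, adjusted p = 0.252). Ift88, whose loss abolishes cilia in mouse, read 8.73 and 8.55 against 8.86 and 8.59, a change of 0.08 ± 0.26 at an adjusted p of 0.865.

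Ift27, a small GTPase of IFT-B that helps the BBSome leave the cilium, was lower at both its probes; it is named after its values were seen. ILMN_2679711 read 10.45 and 10.88 in Atm+/+ and 9.73 and 9.52 in Atm-/-, a change of -1.04 ± 0.28 with a limma adjusted p of 0.0501. ILMN_1215009 read 8.68 and 9.27 against 8.11 and 7.61 (-1.12 ± 0.32, adjusted p = 0.0622). The values of the genotypes did not overlap at either probe. Ift22, another small GTPase of IFT-B, ran the other way, from 8.40 and 8.05 to 9.13 and 9.13 (0.91 ± 0.26, adjusted p = 0.0654).

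Of 3 tested IFT-A genes, 0 passed with limma, and 1 was higher at an unadjusted p under 0.05, against 15.7% of all tested genes. Ift140, a core IFT-A subunit, had positive changes at all 3 of its tested probes, of 0.88, 1.03 and 0.46, at adjusted p between 0.0849 and 0.310. Ift43 stood at -0.52 ± 0.25 and Ift122 at 0.11 ± 0.25. Of 6 tested BBSome genes, 0 passed with limma. Bbs1, at 0.79 ± 0.30, was the 1 higher at an unadjusted p under 0.05, against the 15.7% of all tested genes. Bbs4 read 11.30 and 11.46 in Atm+/+ and 11.21 and 11.15 in Atm-/- (-0.20 ± 0.25, adjusted p = 0.636). The chaperonin-like genes Bbs10 and Bbs12, which help the BBSome assemble, stood at -0.61 ± 0.27 and -0.75 ± 0.34, and neither passed (adjusted p of 0.173 and 0.192).

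Dynlrb2 had the smallest p and the largest change of the 62 tested genes. It encodes a roadblock-type light chain of the dynein motors that carry cargo, and among its relatives it is known for high expression in tissues with motile cilia. Its probe, ILMN_1215019, read 8.94 and 9.04 in Atm+/+ and 6.68 and 6.80 in Atm-/-. The arrays of a genotype lay within 0.13 of each other and it fell by 2.25 ± 0.25, a level 4.76-fold lower in Atm-/- (limma adjusted p = 0.00229). The call held under all 12 alternatives tried, at adjusted p of up to 0.0298. The related Dynlrb1, which serves cytoplasmic dynein and was picked for comparison after values were seen, read 11.77 and 12.59 against 11.80 and 11.92, a change of -0.32 ± 0.33 (adjusted p = 0.566).

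Genes of cilia are known targets of RFX factors, which bind the X-box, and those of motile cilia also of the forkhead factor FOXJ1. Promoters were searched for the 5 motile and 2 general genes of smallest p that had one in the table, and the 4 that held a motif are shown so that its place can be seen. The sequences are from RefSeq on GRCm38.p6, each with 250 bases before and 50 after the most upstream annotated start, 5′ to 3′ on the gene's strand. Capitals mark an X-box (an imperfect inverted repeat, searched by its usual degenerate consensus), its core GTTGCC, or the forkhead core GTAAACA, each on either strand. An X-box can contain this core.
Dynlrb2 (chr8:116504765-116505064, plus strand): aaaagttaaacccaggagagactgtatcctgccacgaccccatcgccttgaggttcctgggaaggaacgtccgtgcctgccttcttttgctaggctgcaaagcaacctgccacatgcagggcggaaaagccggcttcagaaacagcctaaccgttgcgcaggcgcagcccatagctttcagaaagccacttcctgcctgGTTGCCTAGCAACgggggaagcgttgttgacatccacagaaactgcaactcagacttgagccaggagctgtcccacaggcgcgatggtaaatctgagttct
Tekt1 (chr11:72361833-72362132, minus strand): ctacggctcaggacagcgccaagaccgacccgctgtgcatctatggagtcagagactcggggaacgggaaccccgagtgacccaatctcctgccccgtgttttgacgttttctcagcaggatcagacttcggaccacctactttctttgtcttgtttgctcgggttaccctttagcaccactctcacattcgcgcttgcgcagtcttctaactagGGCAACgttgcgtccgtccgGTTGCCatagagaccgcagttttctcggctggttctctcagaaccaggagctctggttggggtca
Cfap161 (chr7:83794790-83795089, minus strand): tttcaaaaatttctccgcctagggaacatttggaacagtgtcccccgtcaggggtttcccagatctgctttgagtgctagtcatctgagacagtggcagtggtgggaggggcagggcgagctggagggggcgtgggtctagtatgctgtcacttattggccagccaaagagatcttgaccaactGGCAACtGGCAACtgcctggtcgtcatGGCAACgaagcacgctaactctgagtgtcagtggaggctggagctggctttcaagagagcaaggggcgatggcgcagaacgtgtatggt
Ift27 (chr15:78174032-78174331, minus strand): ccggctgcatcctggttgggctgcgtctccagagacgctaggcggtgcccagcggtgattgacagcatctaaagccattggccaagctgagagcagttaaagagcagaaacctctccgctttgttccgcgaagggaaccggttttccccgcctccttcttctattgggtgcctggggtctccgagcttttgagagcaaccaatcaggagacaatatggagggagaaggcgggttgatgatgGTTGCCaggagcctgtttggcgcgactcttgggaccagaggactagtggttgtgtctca

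The Dynlrb2 promoter held 1 X-box, GTTGCCTAGCAAC, beginning 51 bases before the start, which contains a GTTGCC core. The Tekt1 promoter held a GTTGCC core on each strand, beginning 35 and 15 bases before the start, and that of Cfap161 held 3 on the reverse strand. Ift27 had 1 core beginning 9 bases before the start. The promoters of Cfap126, Tekt5 and Dnali1 held none of the letters searched. Promoters of 70 member genes were in the table. An X-box was found in 5 of 44 motile and 3 of 22 general promoters, against 1.59% of 27025 promoters of the same length. The GTTGCC core was in 16 of the 44 and 9 of the 22, against 12.7%, and the forkhead core in 4 of the 44 and 0 of the 22, against 3.52%. Of the 6 motile genes that fell and had a promoter in the table, 0 held an X-box and 2 a GTTGCC core, and of 20 tested motile genes that did not pass, 3 held an X-box and 8 a GTTGCC core. A match of letters is a description of the sequence and not evidence of binding.

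Spag5 fell as well, although it is not an axonemal gene. It encodes astrin, a protein of the mitotic spindle, and shares only its name with the axonemal Spag genes. ILMN_2744217 read 10.62 and 9.54 in Atm+/+ and 8.11 and 8.13 in Atm-/-, a change of -1.96 ± 0.38 (limma adjusted p = 0.0178). The Atm+/+ arrays were over 2-fold apart there, and the call was lost without either Atm-/- array and without the filter on dim probes (adjusted p of 0.0543 to 0.0915, within 3.48e-05 to 0.0915 over its alternatives). Spag4, Spag7, Spag9 and Spag11a did not pass, with changes between -0.43 and 0.29 at their brightest probes.

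Of the 84 genes, 46 had more than 1 probe and 21 had more than 1 tested probe. In 8 of the 21, Dnal1, Rsph9, Tekt1, Ift52, Ift74, Ift81, Ift88 and Spag4, the probes differed in sign or in passing the threshold. Ift81, an IFT-B subunit that binds tubulin, showed the widest difference among these. Its probe ILMN_2993804 read 8.99 and 8.42 in Atm+/+ and 9.74 and 9.76 in Atm-/- (1.04 ± 0.29, adjusted p = 0.0557), while its other probes changed by 0.06 ± 0.27 and -0.03 ± 0.27. Under 6 of 12 alternatives that first probe passed. Dnal1, an outer arm light chain, stood at 0.78 ± 0.35, 0.45 ± 0.47 and -0.05 ± 0.25 at its 3 tested probes. The opposite signs at Rsph9, Ift52, Ift74, Ift88 and Spag4 came with adjusted p of 0.400 or more at every probe.

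**Figure D3:**
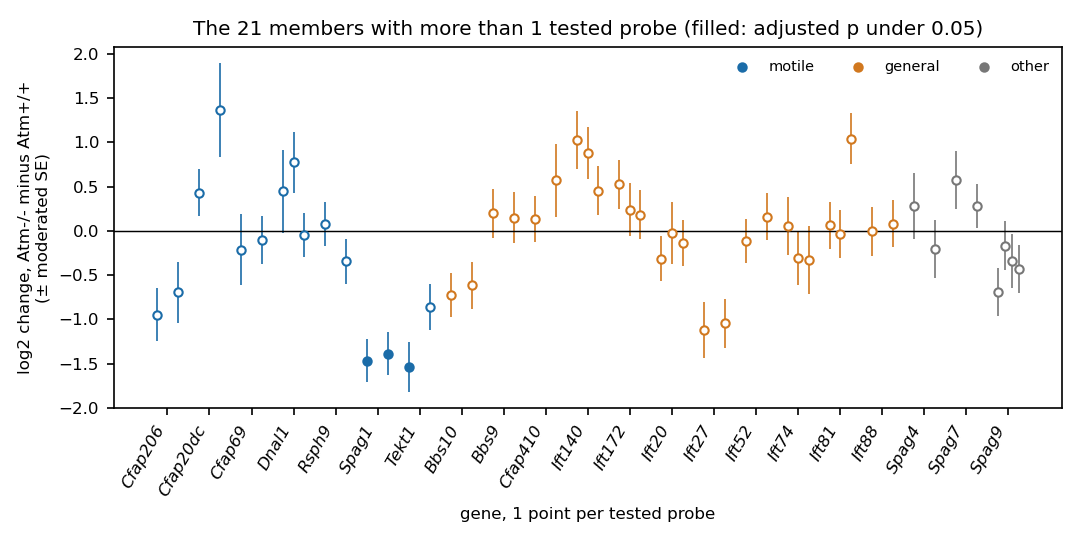
Log2 change, Atm-/- minus Atm+/+, with its moderated SE (bars) at each tested probe of the 21 genes with more than 1; filled points had an adjusted p under 0.05. Both Spag1 probes are filled, and 1 of the Ift81 probes lies at 1.04 while the others lie near 0.

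Cilia genes outside the chosen symbols did not follow 1 direction. Of 75 further motile cilia genes listed, 54 were on the array and 37 were tested. Of these, 6 fell and 2 rose, against 6.89% and 7.50% of all tested genes. Their median change was 0.25, and over all 54, dim genes included, it was -0.05, so the list as a whole has no settled sign. Of the 37, 2 passed the filter through Atm+/+ alone and 1 through Atm-/- alone. Drc7, counted with the 6 and named after its values were seen, was among the 2 and could only read lower. Tppp3, a tubulin-binding protein abundant in ciliated cells, fell by 2.34 ± 0.25 (limma adjusted p = 0.00213), from 10.65 and 10.43 to 8.16 and 8.23. Fam216b fell by 1.55 ± 0.25 and Pifo, which is needed for cilium disassembly, fell by 1.51 ± 0.25. The 2 that rose were Dnaaf1, a dynein arm assembly factor, by 1.12 ± 0.28 (adjusted p = 0.0407), and Ccno, a cyclin-like protein of multiciliated cells, by 1.36 ± 0.31 (adjusted p = 0.0304); both are named after their values were seen. The dynein intermediate chain gene Dnaic1, carried under an older symbol and also looked up later, read 9.05 and 7.48 in Atm+/+ and 8.69 and 8.18 in Atm-/-, a change of 0.17 ± 0.50, and Dnaic2 was at background on all arrays.

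Of 60 further general cilia genes listed, 51 were on the array and 39 were tested, with a median change of -0.06. Of the 39, 1 fell and 4 rose, against 6.89% and 7.50% of all tested genes. Mchr1, the melanin-concentrating hormone receptor that lodges in neuronal primary cilia, rose by 2.87 ± 0.37 (limma adjusted p = 0.00405), from 5.33 and 6.35 to 8.69 and 8.73. Kif17, a kinesin of cilia and dendrites, read 5.46 and 5.09, at background, in Atm+/+ and 6.83 and 6.78 in Atm-/-. Its level was at least 2.24-fold higher (limma adjusted p = 0.0122), but having passed the filter through Atm-/- alone it could only read higher. Nphp4, a protein of the ciliary transition zone, rose by 1.11 ± 0.25 (adjusted p = 0.0293). Hedgehog signalling passes through the primary cilium in mammals. Of 7 tested genes of that pathway, 2 fell, against 6.89% of all tested genes. The receptor gene Ptch1 fell by 1.61 ± 0.26 (adjusted p = 0.00919) and the ligand gene Shh fell by 0.99 ± 0.26 (adjusted p = 0.0467). By limma 0 of the 7 rose. When p was left unadjusted at 0.05, 3 were lower and 1 higher, against 15.9% and 15.7% of all tested genes. Smo, the signal transducer in the ciliary membrane, read 8.07 and 8.58 against 7.38 and 7.12 and did not pass (adjusted p = 0.0519). Of the 7, 5 changes were below 0 and 2 above. The 2 were Gli3 at 0.67 ± 0.27 and Hhip at 0.15 ± 0.33 (limma adjusted p of 0.149 and 0.809). Gli1 was at background on all 4 arrays and not tested. Gli1, Gli3 and Hhip are named after their values were seen.

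Markers listed for ependymal cells and for choroid plexus were mostly lower in the same samples. Of 8 ependymal markers outside the axoneme, 6 were tested. Of these, 4 fell and 0 rose, against 6.89% and 7.50% of all tested genes. Their median change was -1.67 (-0.95 over all 8, dim genes included). The summed signal was 10678 to 12205 in Atm+/+ and 6544 to 7244 in Atm-/-. Mia fell by 2.00 ± 0.27, the intermediate filament gene Vim fell by 1.81 ± 0.26 and Rarres2, which encodes chemerin, fell by 1.56 ± 0.25 (limma adjusted p of 0.00518, 0.00665 and 0.00904). Sox9 and Acta2 did not pass, and Cd24a and Tm4sf1 were at background on all 4 arrays. Whether any of the 8, those that fell included, is particular to ependymal cells in these samples was not tested. Of 15 tested choroid plexus markers, 12 fell and 0 rose with limma, against 6.89% and 7.50% of all tested genes. At an unadjusted p under 0.05, 14 were lower and 0 higher, against 15.9% and 15.7% of all tested genes. Their summed signal was 65240 to 72447 in Atm+/+ and 28181 to 35809 in Atm-/-. Kl, the klotho gene, fell by 2.10 ± 0.26, the folate receptor gene Folr1 fell by 1.89 ± 0.25 and the cation channel gene Trpm3 fell by 1.75 ± 0.27 (adjusted p of 0.00364, 0.00449 and 0.00789). Of the 15, Steap1 alone read at background in the whole Atm-/- group, so it passed the filter through Atm+/+ alone and could only read lower. Steap1, Sox9, Acta2, Cd24a and Tm4sf1 were named after their values were seen. Of 9 sperm markers, 3 were tested and 0 passed with limma, with 0 at an unadjusted p under 0.05, and the other 6 were at background on all 4 arrays. The part of the ependymal and choroid plexus differences in the falls of the motile genes was not tested.

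**Figure D4:**
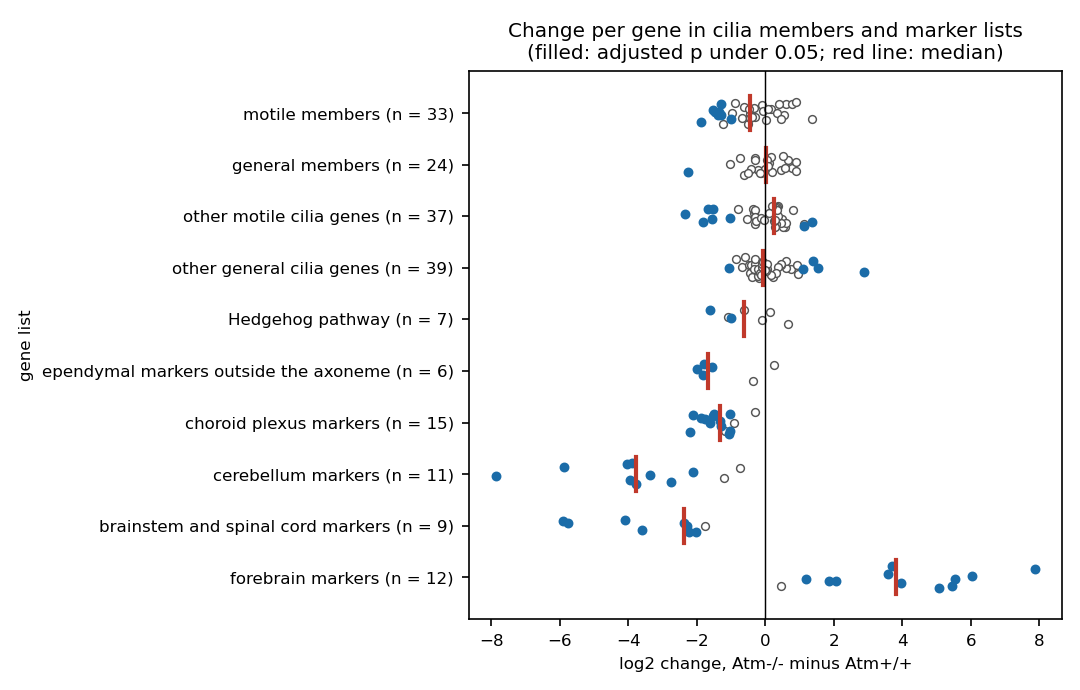
Log2 change, Atm-/- minus Atm+/+, of each tested gene (points, 1 per gene at its brightest tested probe) in the cilia genes and in marker lists, with the median as a red line; filled points had an adjusted p under 0.05. The motile genes, the ependymal markers and the choroid plexus markers have medians over tested genes of -0.43, -1.67 and -1.34, and the further motile cilia genes one of 0.25. With dim genes included these are -0.25, -0.95, -1.32 and -0.05.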

How the data were processed

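Trizol RNA was labelled as biotinylated cRNA, per the labels. The authors deposited processed values for 45281 probes, taken as log2 from their range of 4.47 to 16.1; no software or normalization is named in the sources read. Sorted arrays differed by at most 0.0792 at equal rank, so arrays were used as given, and a one-way shift of most genes would not show. A table before normalization has 8 per-sample columns whose names match no sample and was not used.

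The background level was the mode of all values, 5.054 (density bandwidth 0.05), plus 3 SD of the values under it. Per array, 21290 to 21335 probes exceeded it; the number of arrays limits precision. Genotypes from the labels were compared with limma 3.58.1 (R 4.3.3; lmFit, eBayes, no covariates; residual df 2, prior df 5.22), with Benjamini-Hochberg adjustment over 22383 probes; the fit was tested on simulated data. Symbols came from the platform annotation, and the RefSeq table changed 0 of the 165 member symbols.

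Members and lists were chosen with earlier results of these data known. Genes named by rule were Foxj1, Dynlrb2, members past the threshold, the 3 general genes of highest signal, genes with disagreeing probes, and the 3 genes of smallest p in each cilia, Hedgehog, ependymal and choroid plexus list; other members are given to describe their group, and region and sperm lists by counts. After values were seen, Cfap20dc and Cfap97d1 were moved between motile subgroups. Alternatives were the filter, background level, cyclic loess, centring, variance trend, averaging probes, a replicate block and leaving out each array.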

Additional observations from a re-analysis of the deposited data

How the results depend on the processing

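Of 386 values of the named probes under the alternatives, 347 kept their direction or stayed uncalled and kept their side of the threshold, 19 lost it and 20 gained it. Leaving out 1 array moved the counts most: motile genes lower ranged from 0 to 11 and higher from 0 to 5, general genes lower from 1 to 4 and higher from 0 to 5, all probes higher from 387 to 4174 and lower from 256 to 4146. The lowest counts over all probes and of motile falls came without Atm-/- replicate 1 or 2, the highest without Atm+/+ replicate 1 or 2. The motile median then ran from -0.52 to -0.22 and the general median from -0.13 (without Atm+/+ replicate 2) to 0.0761 (without Atm+/+ replicate 1), so the general median has no settled sign. A lone array was assumed to vary like the other genotype. Without the filter on dim probes the motile median was -0.25, and with background at 5 SD it was -0.55. General genes lower numbered 2, the added gene being Ift27 at its brightest probe, when all 4 arrays had to be above background, with background at 5 SD, on centring and with an intensity trend; they also numbered 2 on averaging probes, where 1 motile gene was higher. Samples share replicate numbers, but deviations of same-numbered arrays correlated at 0.0590, so the numbers were not taken as pairs. With the replicate block, 2378 probes were higher and 2196 lower, 2 motile genes were higher and 10 lower, and 1 general gene was higher and 2 lower. The planned neqc normalization was not run, for lack of a match between columns and samples. Dim probes limit what can be said of the dynein heavy chains.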

Other observations

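The 2 Atm+/+ arrays were further apart than the Atm-/- arrays on cilia genes, as on all probes. Among 91 tested member probes, the Atm+/+ arrays were over 2-fold apart at 10 and the Atm-/- arrays at 0, against 2534 and 165 of all 22383 tested probes. Of the 10, 5 belonged to motile genes, 4 to general genes and 1 to Spag5, and 8 read higher in Atm+/+ replicate 1. Cfap20, a protein of the doublet microtubules, read 8.20 in replicate 1 and 6.36 in replicate 2, and Cfap20dc read 7.52 and 5.77. Ift80, an IFT-B subunit, read 8.42 and 6.82, and Bbs2, a BBSome subunit, read 8.62 and 7.39. Cfap45 read 8.70 and 7.41. Dnal1 at ILMN_1223359 and Cfap410 at ILMN_2706652 ran the other way, at 5.27 and 6.80 and at 7.18 and 8.44. Apart from Spag5, 0 of these probes passed the test between genotypes with limma.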
